A study of Mus musculus with 2 samples.

Results

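Blood vessels are represented in small RNA from brain tissue by a few microRNA genes, and 5 of these genes are described here, out of 2202 microRNA genes counted. The rule names the genes and uses no measured value, although it was written with earlier results of these data known. Mir126a and Mir126b form the locus known for endothelial cells, the cells that line vessels. Mir143 and Mir145a belong to the genes known for mural cells, that is, smooth muscle cells and pericytes, which wrap around the endothelium. The rule groups Mir145b, which lies apart from them on the same chromosome, with these genes. Of the 5 genes, 3 had counts in both libraries and entered the test between libraries, and the other 2, Mir126b and Mir145b, had no sense read in either.

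The samples were hippocampus from 14-day-old female mice of strain B6CASTF1/J, a first-generation cross of C57BL/6J and CAST/EiJ with no treatment named. There was a single group with 2 biological replicates, each labelled as a pool of 3 females and sequenced as 1 library of small RNA. With a single group there was no contrast between conditions, so the results are the levels of the genes and the difference between the libraries. A pool and its library preparation cannot be told apart. Replicate 1 had 4764797 reads assigned to microRNA genes on the sense strand and replicate 2 had 2852269, and CPM, the unit of level used here, scales each count by this total. A gene with 0 reads may still have a level of up to 0.63 CPM in replicate 1 and 1.05 CPM in replicate 2, the level of 3 reads. Intervals and floors cover counting error only, not variation between pools or preparations. Reads without molecular identifiers are not independent molecules, so the intervals may be too narrow even for that error. In tissue RNA, more cells of a type and more of the microRNA per cell cannot be told apart.

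The tissue label names a layer of hippocampus without saying which. Of 7 neuronal marker genes, 5 were detected with at least 10 reads in each library, and the list held 2.14% and 2.13% of assigned reads. Of the 5 neuronal genes tested between the libraries, described further on, 3 were higher and 2 lower in replicate 2. Of all tested genes, 32.2% were higher and 31.3% lower. In the neuronal set, 3 of the 5 are uncertain because they hold a run of 20 bases or more found in a microRNA gene elsewhere. The striated muscle list, which marks a tissue that should be absent, held 0.00779% and 0.00477%. Most of these reads were from Mir206, with 353 and 98 reads, while the copies of Mir1a and Mir133a share runs of at least 28 bases with microRNA genes elsewhere, and reads confined to such runs are not assigned.

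MicroRNAs are cut from hairpin precursors and guide Argonaute proteins to messenger RNAs that pair with their seed, the bases next to the 5′ end. miR-126 is made from the Egfl7 gene in endothelial cells, where it is known to sustain signalling by vascular endothelial growth factor through repression of Spred1 and Pik3r2, and mice without it have fragile, leaky vessels. miR-143 and miR-145 are made together in smooth muscle cells and pericytes and are known to favour the contractile state of these cells, in part through repression of Klf4.

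The Mir126 sequences are shown because the whole reading of that locus rests on which strand a read came from. They are RefSeq sequences on build GRCm38.p6, and 2 of the 5 genes had an entry in the table used. In the mature sequences the capitals mark the seed, bases 2 to 8.
mmu-miR-126a-3p: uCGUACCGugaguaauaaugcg
mmu-miR-126b-5p: aUUAUUACucacgguacgaguu
mmu-miR-126b-3p: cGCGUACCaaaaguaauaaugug
In the hairpins the capitals mark the mature products listed for each gene.
Mir126a hairpin: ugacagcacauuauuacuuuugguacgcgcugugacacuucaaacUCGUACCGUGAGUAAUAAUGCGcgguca
Mir126b hairpin: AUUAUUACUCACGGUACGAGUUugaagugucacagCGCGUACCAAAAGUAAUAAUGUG

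Mir126a (ENSMUSG00000065540.1) lies on the plus strand of chromosome 2, from 26591357 to 26591429 in GRCm38, with a hairpin of 73 bases. Mir126b (ENSMUSG00000105799.1) lies on the minus strand from 26591363 to 26591420, and its 58 bases are the exact reverse complement of the middle of the Mir126a hairpin. The mature miR-126b-5p covers 19 bases of miR-126a-3p on the other strand. The table used lists 1 mature product for Mir126a, the 3p product, and its 5p product is not shown here, so that arm stands in lower case in the hairpin. The 3 mature products shown have different seeds, and none of these seeds occurred in any other of the 1738 mature mouse microRNAs in the table. The letters of both hairpins fold back on themselves, with a predicted energy of -31.2 kcal/mol for Mir126a and -19.3 kcal/mol for Mir126b. In the M21 annotation, 9 Egfl7 transcripts span Mir126a. It lies in an intron of 8 of them, 7 of these protein-coding, and in an exon of 1 that is not protein-coding.

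Mir143 (ENSMUSG00000065445.3) lies on the minus strand of chromosome 18, from 61649196 to 61649258, with a hairpin of 63 bases. Mir145a (ENSMUSG00000065592.2) follows on the same strand from 61647825 to 61647894, with 1301 bases between the genes. Carmn, a long noncoding RNA gene of smooth muscle, ends 366 bases before Mir143 in the M21 annotation used for counting, so no host gene overlaps the pair there. In RefSeq the same gene runs from 61645878 to 61665538 and spans both. Mir145b (ENSMUSG00000098366.1) is on the same chromosome and strand from 69022199 to 69022273, 7.37 megabases away from Mir143, and no other annotated gene overlaps it.

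**Figure D1:**
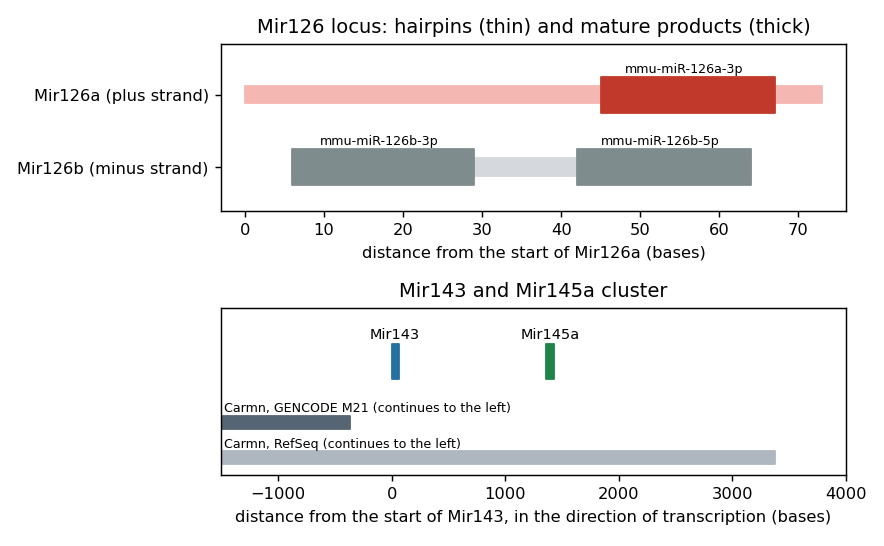
Maps by distance in bases, in the top panel from the start of Mir126a and in the bottom panel from the start of Mir143 in the direction of its transcription. The hairpin of Mir126b (58 bases) lies wholly inside that of Mir126a on the other strand, and Mir145a lies 1301 bases past Mir143, inside Carmn as RefSeq draws it and outside Carmn as M21 draws it.

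Mir126a was the most abundant of the 5 genes. It had 47484 reads in replicate 1 and 48102 in replicate 2, which is 9966 CPM (95% exact counting interval 9877 to 10055) and 16864 CPM (16715 to 17015). The mean was 13415 ± 4878 CPM (SD, n = 2). Replicate 2 was higher, although its library held fewer reads in all. Among assigned reads, Mir126a ranked 17th of 2202 genes in replicate 1 and 11th in replicate 2. In the order of mean levels it stood 16th, between Mir652 at 13814 ± 412 and Mir149 at 13172 ± 4603 CPM. Neither neighbour differed from it beyond the spread between the libraries. Mir652 was above Mir126a in replicate 1, at 14106 CPM, and below it in replicate 2, at 13523 CPM.

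Mir143 was the leading mural gene. It had 27296 reads in replicate 1 and 9426 in replicate 2, which is 5729 CPM (5661 to 5797) and 3305 CPM (3238 to 3372), with a mean of 4517 ± 1714 CPM (SD, n = 2). Here replicate 1 was higher. Mir143 ranked 36th in replicate 1 and 51st in replicate 2. Its neighbours in the order of mean levels were Mir361 at 4557 ± 143 and Mir22 at 4397 ± 1260 CPM, and neither differed from Mir143 beyond the spread between the libraries.

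Mir145a, transcribed in the same direction a short way downstream, was far less abundant. It had 1277 reads in replicate 1 and 512 in replicate 2, which is 268 CPM (254 to 283) and 180 CPM (164 to 196), with a mean of 224 ± 62.6 CPM (SD, n = 2). As for Mir143, replicate 1 was higher. Mir145a ranked 169th and 177th, and its neighbours by mean level were Mir3059 at 234 ± 86.6 and Mir30c-2 at 223 ± 3.4 CPM, again within the spread between the libraries.

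Levels were not divided by gene length, since a microRNA library is made from short products and not from fragments spread over a transcript, and the tables hold no read lengths. Small RNA library steps recover different sequences with different efficiency, so a ratio of levels between genes is a ratio of reads, and its relation to molecules was not tested. The order Mir126a, Mir143, Mir145a was the same in both libraries, and the levels of these genes did not overlap. The 5 genes together held 1.6% (1.58 to 1.61) of assigned reads in replicate 1 and 2.03% (2.02 to 2.05) in replicate 2. Reads that map to several places, 40.8% and 37.1% of all reads, are not assigned and enter no level, rank or share. A gene with near-identical copies elsewhere can therefore rank lower here than all of its reads would place it.

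**Figure D2:**
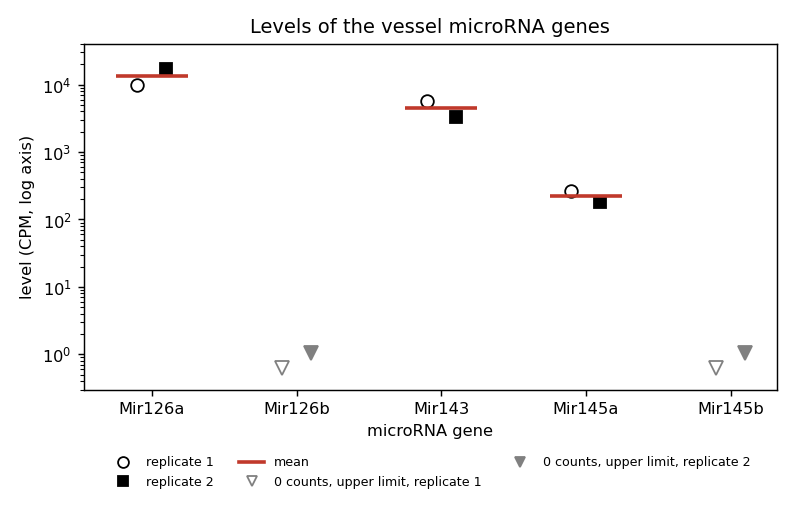
Level of each gene in CPM on a log axis, with open circles for replicate 1, filled squares for replicate 2 and a red line for their mean. Mir126a lies highest at 9966 and 16864 CPM, Mir143 and Mir145a lie below it with replicate 1 above replicate 2, and the triangles show that Mir126b and Mir145b had 0 reads, with upper limits of 0.63 and 1.05 CPM.

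The pair at the Mir126 locus was read from 1 strand only. On their own strand the counts of Mir126b were 0 in both libraries, against 47484 and 48102 for Mir126a. By the floor of 3 reads, Mir126b held at most 0.00632% and 0.00624% of the reads of the locus. Taking the floor of 3 reads per library, Mir126a was at least 15828-fold higher than Mir126b in replicate 1 and at least 16034-fold higher in replicate 2.

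The count column for the opposite strand shows the same reads a second time. Mir126b had 47482 opposite-strand reads in replicate 1 and 48102 in replicate 2, while Mir126a had 0 and 0. Only 2 reads, both in replicate 1, were counted for Mir126a and not for Mir126b. The Mir126a hairpin has 6 bases before and 9 bases after the stretch it shares with Mir126b. A count stands for the whole hairpin and does not tell its arms apart.

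When strand was ignored the locus all but vanished. The column without strand held 2 reads for Mir126a in replicate 1 and 0 in replicate 2, a mean of 0.224 CPM. That column has a line for ambiguous reads, and the reads missing from Mir126a equal 15.9% of this line in replicate 1 and 26.5% in replicate 2. Mir143 and Mir145a have no partner on the other strand, and their counts were the same with and without strand.

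Such one-sided counts were common where microRNA genes overlap on opposite strands. The M21 annotation holds 32 such pairs among the counted genes, and the Mir126 pair had the second highest count. Of the 16 pairs with at least 1000 reads on the major strand, 12 had 0 reads for the minor gene, the Mir126 pair among them, and 0 had a minor gene with more than 10 reads. Mir126b is therefore not particular among them in having no reads.

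**Figure D3:**
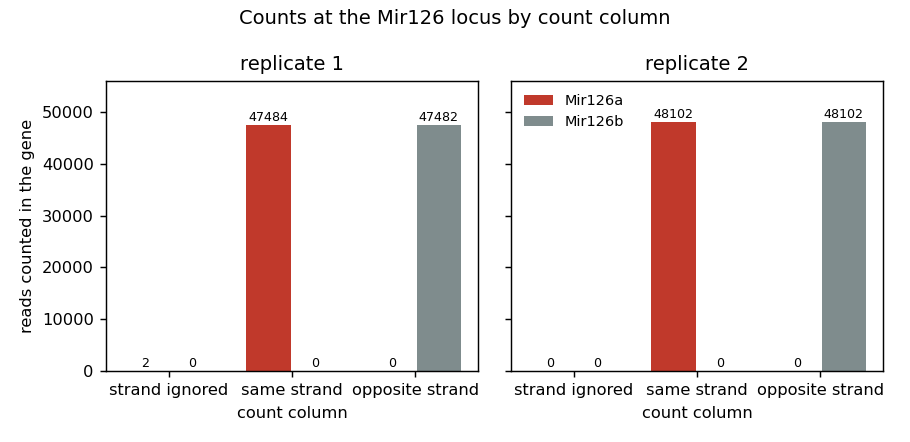
Reads counted for Mir126a (red) and Mir126b (grey) in each of the 3 count columns, for replicate 1 on the left and replicate 2 on the right. All but 2 reads of the locus appear as same-strand reads of Mir126a and again as opposite-strand reads of Mir126b, and no more than 2 remain when strand is ignored.

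Mir145b had 0 reads on its own strand, 0 on the opposite strand and 0 with strand ignored, in both libraries. By the floor, its level was at most 0.63 CPM in replicate 1 and 1.05 CPM in replicate 2. Taking 3 reads per library as the floor, Mir145a was at least 426-fold higher in replicate 1 and at least 171-fold higher in replicate 2. Reads that map to several places are not assigned to a gene in these tables, and such reads made up 40.8% and 37.1% of all reads. Mir145a and Mir145b share a run of 17 bases, below the 20 bases from which a gene was treated as uncertain, and a read confined to that run could not be placed in either. The other members shared less with microRNA genes elsewhere, with 12 bases at most for Mir126a and Mir126b and 11 bases for Mir143.

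Between the libraries, the endothelial and mural genes differed in opposite directions. The comparison asks whether the count of a gene, set against scaled library sizes, differed between the pools by more than counting error. It used library sizes scaled by TMM and a two-sided exact binomial test with Benjamini-Hochberg adjustment over the 450 genes that reached 20 reads in both libraries together. It compares 2 libraries, not conditions. By this test 63.6% of the 450 genes differed at an adjusted p under 0.05, 32.2% being higher and 31.3% lower in replicate 2, so that passing it is the common outcome for a microRNA in these data.

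Mir126a, at 9966 and 16864 CPM, gave a log2 ratio, replicate 2 over replicate 1, of 0.88 (0.86 to 0.90 at 95%, counting error only), and its adjusted p in the exact binomial test underflowed to 0. Mir143, at 5729 and 3305 CPM, had a log2 ratio of -0.67 (-0.71 to -0.64) and an adjusted p that also underflowed to 0. Mir145a, at 268 and 180 CPM, had a log2 ratio of -0.46 (-0.61 to -0.31) with an adjusted p of 2.15e-09 in the same exact test. All 3 differed by more than counting error, 1 of them higher and 2 lower in replicate 2. Mir126b and Mir145b had no reads and could not be tested.

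Other genes differed as widely between the libraries. Among the 173 genes whose counts averaged 1000 or more, the log2 ratio had an SD of 0.86 and an interquartile range of -0.33 to 0.47. Mir126a lay above this range, and 18 of the 173 genes had a higher ratio. Mir143 lay below it, and 19 of the 173 genes had a lower ratio. Mir145a, whose own mean count was under 1000, also lay below it, with 32 of the 173 genes lower. In that set 28 genes differed by more than 2-fold, and Mir126a, Mir143 and Mir145a were not among those.

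**Figure D4:**
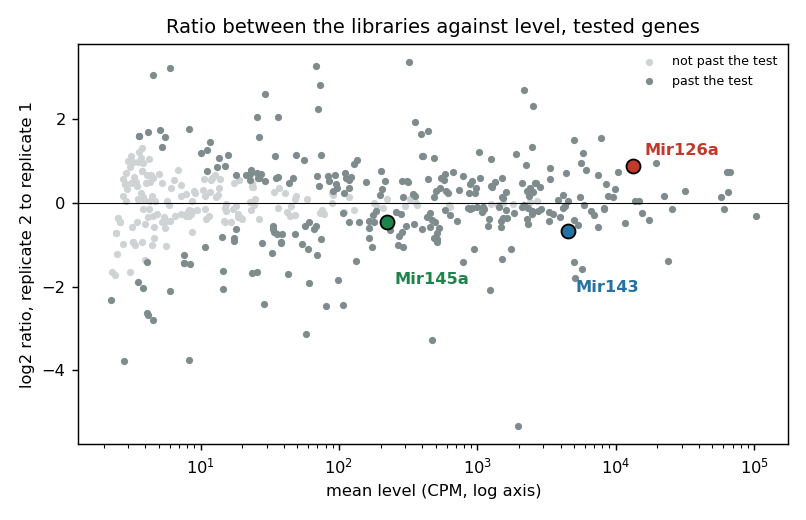
Each point is 1 of 450 tested genes, with its mean level in CPM on a log axis and the log2 ratio of replicate 2 to replicate 1. Mir126a lies above 0 at 0.88, and Mir143 and Mir145a lie below 0 at -0.67 and -0.46, within the cloud of other genes, 63.6% of which passed the test.

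The ratio of endothelial to mural reads can be taken within each library, where no scaling between libraries enters. In replicate 1 there were 1.74 Mir126a reads per Mir143 read, with a 95% Clopper-Pearson interval of 1.71 to 1.77. In replicate 2 there were 5.1, with an interval of 4.99 to 5.22. The mean was 3.42 ± 2.38 (SD, n = 2). The intervals did not overlap, and Mir126a was the higher of the pair in both libraries. Per Mir145a read there were 37.2 (35.2 to 39.3) and 93.9 (86.1 to 103) Mir126a reads. Mir143 and Mir145a together held 0.6% of assigned reads in replicate 1 and 0.348% in replicate 2.

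Within the mural cluster the proportion of the neighbours was 21.4 Mir143 reads per Mir145a read in replicate 1, with an interval of 20.2 to 22.6. It was 18.4 in replicate 2, with an interval of 16.8 to 20.2, and the mean was 19.9 ± 2.1 (SD, n = 2). The bound of replicate 1 nearest to replicate 2 and the bound of replicate 2 nearest to replicate 1 were both 20.2. Whether this proportion differed between the pools was not tested.

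None of the genes nearest in ratio was another of the 5, but only Mir126a and Mir143 had enough reads to be chosen. Mir145a could therefore not come up as nearest to Mir143. Likeness was taken as the distance between log2 ratios over these 2 libraries, among genes whose counts averaged 1000 or more, and with 2 libraries it carries no more than that distance. Nearest to Mir126a were Mir423 at 0.91, Mir149 at 0.85 and Mir221 at 0.84. Nearest to Mir143 were Mir1224 at -0.69, Mir21a at -0.71 and Mir376c at -0.63. Nearest to Mir145a were Mir125b-2 at -0.46, Mir487b at -0.47 and Mir125b-1 at -0.44. Of these, Mir221 and Mir21a are also on the vessel lists that follow.

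Other microRNAs that have been tied to endothelial cells, most of them also made by other cells, showed no common direction. Of 15 listed genes 13 were matched by symbol, and all 13 were tested. Of these 13, 5 were higher and 6 lower in replicate 2, beside 32.2% and 31.3% of all tested genes. Their median log2 ratio was -0.28, beside 0.01 over all tested genes, and it went from -0.41 with total counts as library sizes to -0.14 with strand ignored. Mir221, which lowers the stem cell factor receptor Kit in human endothelial cells, stood at 2524 and 4142 CPM and had a log2 ratio of 0.84 (0.80 to 0.87). Its neighbour Mir222, of the same family, stood at 730 and 547 CPM and went the other way at -0.29 (-0.38 to -0.21). Mir210, the microRNA induced by low oxygen, was higher at 0.62 (0.42 to 0.81), on 485 and 409 reads. Mir17, of a cluster linked to cell division, was higher at 0.27 (0.23 to 0.31). Mir92-1 and Mir18, listed as Mir92a-1 and Mir18a, were not matched and are left out of these counts and medians. Both passed the test, Mir92-1 higher at 0.41 (0.35 to 0.47) and Mir18 lower at -0.44 (-0.61 to -0.26).

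Mir130a, known to lower the antiangiogenic factors Gax and Hoxa5 in human endothelial cells, stood at 5872 and 4062 CPM with a log2 ratio of -0.41 (-0.44 to -0.38). The cluster of Mir23a, Mir27a and Mir24-2 was lower at -0.28, -0.46 and -1.19, and all 3 are uncertain, since each holds a run of 20 bases or more found in a microRNA gene elsewhere. Mir10b was lower at -1.67 (-2.28 to -1.11), on 174 and 30 reads. Mir296 at 0.08 and Mir322 at 0.12 were called higher. With total counts as library sizes Mir296 turned to -0.04 and Mir322 to 0.00, which left 3 of the 13 matched genes higher and 7 lower. Mir503 at -0.06 (-0.39 to 0.26) and Mir10a did not pass the test.

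Most of the tested microRNAs of smooth muscle, fibroblasts and other mesenchyme lay lower in replicate 2, as Mir143 and Mir145a did. Which cells of the tissue made these reads was not tested. Of 9 listed genes 8 were matched by symbol, and 5 of these had enough reads to be tested. All 5 were lower, beside 31.3% of all tested genes, with a median log2 ratio of -1.34 beside 0.01 over all tested genes. With no filter on low counts the median was -0.78 over 7 genes, the added ones being Mir199a-2 with 2 and 2 reads and Mir199b with 7 and 9. Mir195a, of the mir-15 family, stood at 2194 and 797 CPM with a log2 ratio of -1.34 (-1.41 to -1.27). Mir21a, abundant in injured vessels and in fibroblasts, stood at 650 and 366 CPM with -0.71 (-0.81 to -0.61). Mir490, made from a Chrm2 intron and found in smooth muscle, was nearest to 0 of these 5 at -0.26 (-0.39 to -0.13). Mir497, listed as Mir497a, was not matched and is left out of these counts and medians. Although Mir497 lies beside Mir195a on the same strand of chromosome 11, it did not pass the test. It had 7047 and 3777 reads and a log2 ratio of -0.04 (-0.09 to 0.02).

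The lowest ratios of that list rested on few reads. Mir214, a microRNA of mesenchyme, had 463 and 68 reads and a ratio of -1.90 (-2.29 to -1.54). Mir152 had 188 and 33 reads and a ratio of -1.65 (-2.23 to -1.11). Mir199a-1, with no read in either library, Mir199a-2 and Mir199b share runs of 27 or 28 bases with each other. Choroid plexus and ciliated cell genes were also lower in replicate 2, all 4 of 4, beside 31.3% of all tested genes. They held 0.395% of reads in replicate 1 and 0.119% in replicate 2. Their part in the mural and mesenchymal difference was not tested.

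Blood cells inside the vessels gave another reading. Mir451a, which red cells hold in quantity, had 1036 and 1892 reads, 217 and 663 CPM, and a log2 ratio of 1.73 (1.62 to 1.84), the same direction as Mir126a. The other red cell genes did not follow, with Mir144 at -0.21 (-0.56 to 0.13) and Mir486 at -0.17 (-0.65 to 0.29), both short of the threshold. The 3 measured red cell genes held 0.029% and 0.0722% of reads. Of the white cell genes, Mir150, a lymphocyte microRNA, was slightly lower at -0.12 (-0.19 to -0.05), while Mir142 and Mir223 did not pass, at -0.29 and -1.03. With total counts as library sizes both were called lower, at -0.41 and -1.15. The 3 listed epithelial markers, Mir200c, Mir429 and Mir183, were all higher in replicate 2 as well, beside 32.2% of all tested genes. They held 0.00596% and 0.0365% of reads in all, and other epithelial genes were not listed. Markers of the main cell types of the tissue moved too. Mir219a-2, of oligodendrocytes, was higher at 1.17 (1.12 to 1.22), while Mir338 of the same cells did not pass at -0.05 (-0.14 to 0.04) and was called lower, at -0.17, with total counts as library sizes. The pair held 0.191% and 0.317% of reads. Among the neuronal genes Mir138-1 at 1.5, Mir132 at 0.80 and Mir124a-1 at 1.71 were higher, and Mir128-1 at -1.42 and Mir137 at -0.53 were lower. Of these, Mir219a-2, Mir138-1, Mir124a-1 and Mir128-1 are uncertain through shared runs. The part of blood, epithelium, oligodendrocytes and neurons in the Mir126a difference was not tested.

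Of 9 measured striated muscle genes, 2 were tested. Mir206, a skeletal muscle microRNA, was lower, as the mural genes were, at -0.99 (-1.32 to -0.66) on 353 and 98 reads, and Mir499, made from a myosin gene, was higher at 3.06 (1.64 to 4.82) on 5 and 23 reads.

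**Figure D5:**
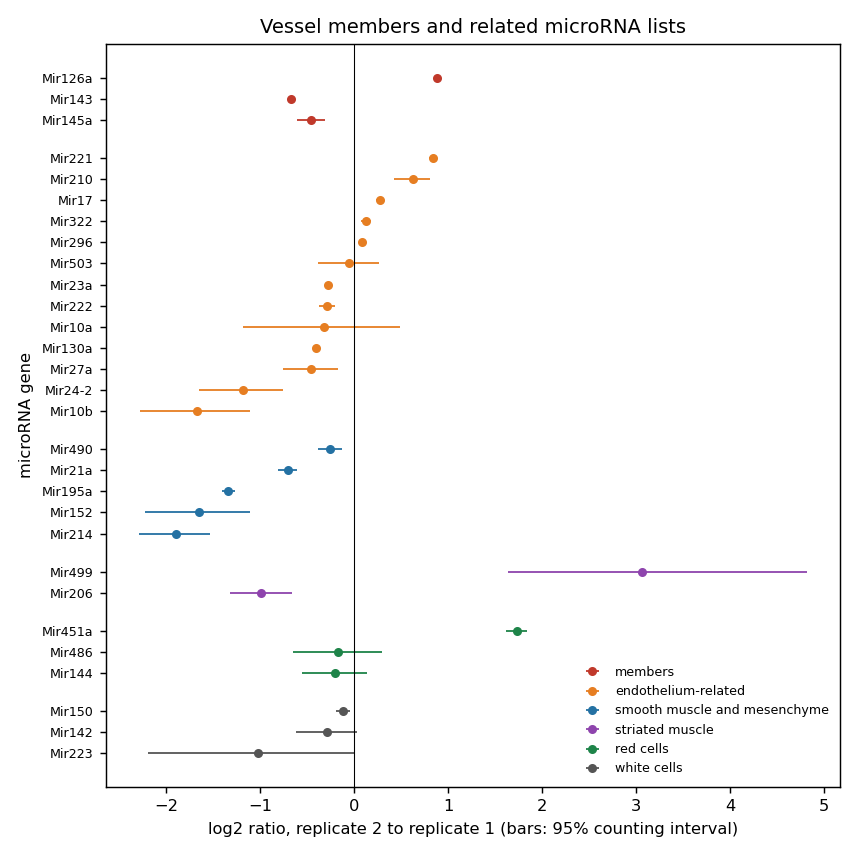
Log2 ratio of replicate 2 to replicate 1 for the 3 tested vessel genes and for the tested genes of each list, with 95% counting intervals as bars. The listed genes Mir92-1, Mir18 and Mir497, not matched by symbol, are not shown. Mir126a lies at 0.88 while Mir143, Mir145a and the 5 smooth muscle and mesenchyme genes shown lie below 0. The endothelium-related genes lie on both sides, from -1.67 to 0.84.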

How the data were processed

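The labels describe 2 libraries of 1 group. The deposited tables hold raw read counts per microRNA gene on assembly mm10 with GENCODE M21, per the text the authors deposited with the counts; neither aligner nor counter is given in the sources used here. Of 3 count columns (strand ignored and each strand), the strand holding the larger total served as sense. Lines that count reads without a gene stayed out of library sizes, and assigned reads were 36.1% and 36.4% of all reads. CPM, TMM scaling (edgeR 4.0.16, R 4.3.3), exact binomial tests with the smaller tail doubled, and Clopper-Pearson intervals were computed here (Python 3.11.15, scipy 1.17.1). Hairpins were folded with RNAfold 2.7.2. Tested on simulated counts with counting noise only (445 genes), the test called 2.34% of unchanged genes, 84.4% at 2-fold and 98.9% at 4-fold. The members and lists were chosen with earlier results of these data known. List genes were matched by their M21 symbol, which missed Mir92-1, Mir18 and Mir497. Those genes are reported apart from the list counts, were named after their values were seen, and were not searched for shared runs. Genes named are the members, list genes whose counts averaged 100 or more, the 3 nearest ratios and the neighbours in level; Mir10a, Mir486, Mir223, Mir499, Mir124a-1, other marker genes, the Mir1a and Mir133a copies and the Mir199 copies were named after their values were seen. Alternatives were strand ignored, library sizes by DESeq2 1.42.0 or from total counts, other filters, thinning, a stricter threshold, leaving out the most abundant gene, other CPM totals and leaving out each replicate.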

Additional observations from a re-analysis of the deposited data

How the results depend on the processing

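The log2 ratios kept their direction and passed the test under every alternative that gave a value. These were 7 alternatives for Mir126a, with ratios from 0.76 to 0.91, and 8 each for Mir143, from -0.79 to -0.65, and Mir145a, from -0.58 to -0.43. Total counts as library sizes shifted all ratios by -0.12. Without strand, Mir126a had too few reads for a ratio, its level went from 13415 to 0.224 CPM, and its reads per Mir143 read went from 3.42 to 3.66e-05. With all reads as the total, in place of assigned reads, levels were 4868 CPM for Mir126a, 1636 for Mir143 and 81.0 for Mir145a. Leaving out a replicate, levels ranged from 9966 to 16864 CPM for Mir126a, from 3305 to 5729 for Mir143 and from 180 to 268 for Mir145a, Mir126a reads per Mir143 read from 1.74 to 5.1, and Mir143 reads per Mir145a read from 18.4 to 21.4. The genes of the endothelium-related list called higher went from 5 to 3 with total counts and to 3 with no filter, alternatives chosen for the lists after seeing the data. The median of the smooth muscle and mesenchyme list went from -1.34 to -0.78 with no filter, over 7 genes. That of the endothelium-related list ranged from -0.41 with total counts to -0.14 with strand ignored. These list results cover only the genes matched by symbol. Mir126b and Mir145b had 0 reads in the sense and unstranded columns, so no alternative gave them a ratio. No paired analysis was possible because there is 1 group. By the floor of 3 reads, a gene with 0 reads may have a level of up to 0.63 CPM in replicate 1 and 1.05 CPM in replicate 2.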
